A study of Mus musculus with 3 samples.

Results

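The genes described here are the glucose transporter gene Slc2a1 (GLUT1) and 9 genes of the main chain of glycolysis, Hk1, Hk2, Gpi1, Pfkl, Aldoa, Pgk1, Eno1, Pkm2 and Ldha. They were taken by name from the annotation of the array, which uses the older symbol Pkm2 for Pkm. All 10 genes were found, on 20 of the 41157 probes tested and among 27951 gene names. Their probes lie on chromosome 4 (Slc2a1, Eno1), 6 (Hk2), 7 (Gpi1, Aldoa, Ldha), 9 (Pkm2), 10 (Hk1, Pfkl) and X (Pgk1), and whether a probe lies in a coding or an untranslated part is not given in the annotation. The array data compare mast cell progenitors (MCps) of 3 WT and 3 p85α-/- mice, with n = 3 cultures per genotype. Pik3r1 encodes p85α, a regulatory subunit of class IA PI3K. In both genotypes, marrow mononuclear cells of each mouse grew for 7 days with 10 ng/mL of IL-3, cells positive for KIT and for the IgE receptor were sorted, and these received 100 ng/mL of SCF, which activates KIT, over 48 hours. Neither strain nor age is stated for these mice. Each array held 1 WT culture in Cy3 and 1 p85α-/- culture in Cy5, with no dye swap, so that dye and genotype cannot be told apart in any value given here. The few sorted cells required amplification of the cDNA by a global PCR before labeling.

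Glycolysis converts glucose to pyruvate in the cytosol and yields ATP without oxygen, and lactate dehydrogenase returns the NAD+ that the pathway consumes. Glucose enters most dividing blood cells through GLUT1, is trapped by hexokinase, and is committed to glycolysis by phosphofructokinase. Signaling through PI3K and AKT is known to raise glucose uptake and hexokinase activity in growing hematopoietic cells, and the transcription factors HIF-1 and MYC are known to drive many of the genes. Mast cells depend on glycolysis for part of the energy used in growth and degranulation.

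HIF-1 binds the core sequence ACGTG, and MYC binds the E-box CACGTG, in which ACGTG can be read on both strands. The 250 bases before each RefSeq transcription start (GRCm38.p6) were searched for ACGTG on both strands, and 6 of the 10 genes (Slc2a1, Hk2, Aldoa, Pgk1, Pkm2 and Ldha) held it before at least 1 start. Over all 27025 genes with such a sequence the share was 18.5%. The E-box was held by Ldha alone among the members, against 6.86% of all genes. The windows of 4 genes with a match are printed because they show the motif at the entry, the trapping step, the payoff phase and the end of the pathway. The window of Pfkl is printed beside them because Pfkl is the member with a difference past the criteria used below. Capitals mark ACGTG or, where it is read on the opposite strand, CACGT. The windows are Slc2a1 at chr4:119108495-119108744 (plus strand), Hk2 at chr6:82774455-82774704 (minus strand), Pfkl at chr10:78009808-78010057 (minus strand), Pgk1 at chrX:106186850-106187099 (plus strand) and Ldha at chr7:46845554-46845803 (plus strand), each written 5′ to 3′ along its gene.
Slc2a1: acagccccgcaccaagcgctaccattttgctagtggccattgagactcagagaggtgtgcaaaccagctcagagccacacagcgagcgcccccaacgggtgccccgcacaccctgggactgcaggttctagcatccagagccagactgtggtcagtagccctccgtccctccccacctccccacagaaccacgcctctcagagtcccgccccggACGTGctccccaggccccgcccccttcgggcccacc
Hk2: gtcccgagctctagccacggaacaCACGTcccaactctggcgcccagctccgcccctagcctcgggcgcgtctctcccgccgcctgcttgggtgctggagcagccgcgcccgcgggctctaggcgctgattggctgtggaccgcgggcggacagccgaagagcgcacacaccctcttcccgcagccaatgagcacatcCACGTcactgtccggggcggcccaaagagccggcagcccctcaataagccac
Pfkl: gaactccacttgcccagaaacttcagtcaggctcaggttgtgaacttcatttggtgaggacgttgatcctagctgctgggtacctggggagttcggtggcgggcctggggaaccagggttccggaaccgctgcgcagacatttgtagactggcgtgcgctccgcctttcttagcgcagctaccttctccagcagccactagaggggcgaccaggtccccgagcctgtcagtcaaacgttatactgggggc
Pgk1: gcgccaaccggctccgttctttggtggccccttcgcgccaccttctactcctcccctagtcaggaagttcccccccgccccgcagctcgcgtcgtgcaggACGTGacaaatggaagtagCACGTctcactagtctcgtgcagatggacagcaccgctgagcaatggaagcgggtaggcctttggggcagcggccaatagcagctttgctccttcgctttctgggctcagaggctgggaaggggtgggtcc
Ldha: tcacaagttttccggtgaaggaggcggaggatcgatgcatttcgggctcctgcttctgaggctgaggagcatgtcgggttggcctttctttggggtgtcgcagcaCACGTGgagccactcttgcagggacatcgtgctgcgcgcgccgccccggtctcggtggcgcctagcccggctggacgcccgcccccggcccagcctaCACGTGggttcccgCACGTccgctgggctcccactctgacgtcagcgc
The Slc2a1 match began 36 bases before the start, and those of Pgk1 began 150 and 131 bases before it on opposite strands. Hk2 held the motif 226 and 52 bases before its start, both times on the opposite strand. Ldha held 2 E-boxes and 1 further match. No match was found in the Pfkl window, which says only that these letters are not in it. These are matches of letters, and no binding was measured.

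Intensities are given as normalized log2 values (background-corrected and quantile normalized over the 6 channels), and a log2 ratio is the p85α-/- value minus the WT value on 1 array. Each ratio was tested against 0 with limma over all probes, with Benjamini-Hochberg adjustment. No probe reached an adjusted p under 0.05 (0 of 41157, 0%), and 1829 passed a 1.5-fold change together with an unadjusted p under 0.05, the size criteria that the study's methods name. Of all probes, 2.78% passed these with higher signal in p85α-/- and 1.66% with lower signal. Replicates 1, 2 and 3 are the 3 arrays. The log2 ratios of all probes correlated between arrays 1 and 3 with r = 0.17, and those of array 2 correlated with neither (r = 0.01 and r = -0.03, a description across probes). The gene that encodes p85α did not settle the labels. The paper reports loss of p85α by western blot in mast cells grown from p85α-/- marrow (data not shown there). Pik3r1 had 4 probes with mean log2 ratios of 0.59 ± 0.79, 0.32 ± 0.18, -0.04 ± 0.27 and -0.58 ± 0.41 (SD, n = 3). On its brightest probe the WT cultures read 9.25, 8.89 and 8.36 and the p85α-/- cultures 10.74, 8.86 and 8.69 on replicates 1, 2 and 3. Whether the probes lie in the disrupted part is not given in the sources used here, so their signal need not fall in the p85α-/- cultures. All 12 mast cell markers on the array gave a signal well above background on each array in WT, p85α-/- or both.

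Each of the 10 genes was well above background on each array in WT, p85α-/- or both, and 7 of them lay among the brightest 10% of probes. None differed between genotypes at an adjusted p under 0.05 with limma, the adjusted p-values of their brightest probes lying between 0.908 and 0.979. Pfkl was lower in p85α-/- MCps on every array and was the sole member past 1.5-fold and an unadjusted p under 0.05, a count of 1 of 20 probes. Hk2 was the sole member higher on every array. Averaged over the arrays, 8 of 10 genes had a ratio above 0, against 12025 of 27951 gene names and 1592 of the 4116 probes in the brightest 10%. The median of the members was 0.45, against -0.05 over all probes and -0.26 over the brightest 10%. That median was 0.062 without replicate 1 and 1.32 without replicate 2, and 5 of 10 genes were above 0 without replicate 1 and 6 of 10 without replicate 3. With centring on the array median it was 1.49, with 9 of 10 genes above 0. The median SD between arrays was 1.30 for the members, 1.34 for the other glycolysis genes, 1.18 over the brightest 10% of probes and 0.67 over all probes.

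**Figure D1:**
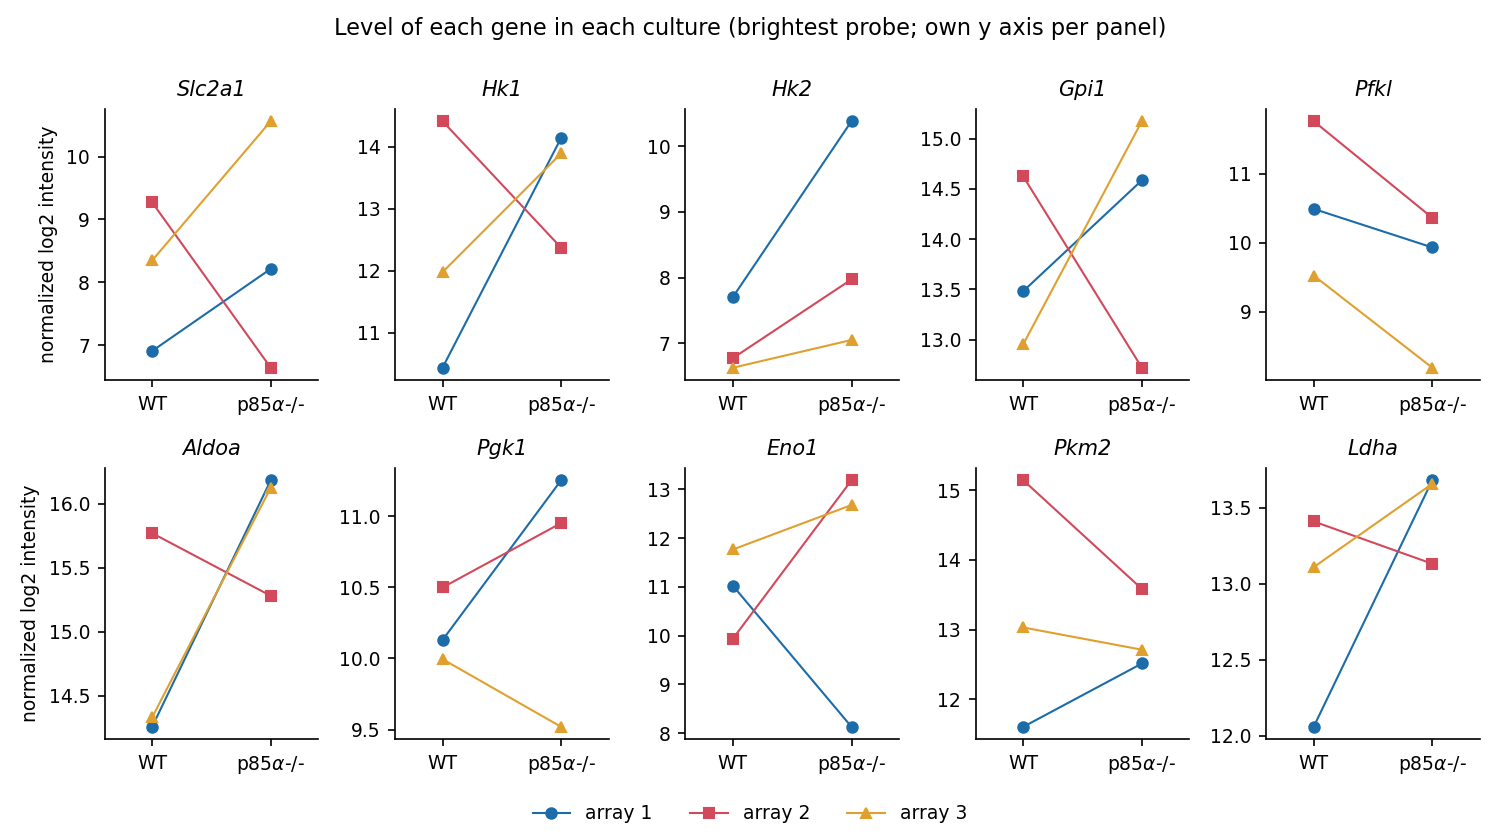
Normalized log2 intensity (y axis, own range in each panel) of the brightest probe of each of the 10 genes in the WT and p85α-/- cultures, with lines joining the cultures of 1 array. The p85α-/- culture is the lower one on all 3 lines of Pfkl and the higher one on all 3 lines of Hk2, while for Slc2a1, Hk1, Gpi1, Aldoa and Ldha the line of array 2 runs opposite to the others.

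Slc2a1 encodes GLUT1, the main basal glucose carrier of blood cells. The WT cultures read 6.91, 9.27 and 8.35 and the p85α-/- cultures 8.21, 6.64 and 10.57 on replicates 1, 2 and 3. The genotypes overlapped, since the lowest and the highest of the 6 cultures were both p85α-/-. Their mean log2 ratio was 0.30 ± 2.58 (SD, n = 3), with a 95% interval from -2.89 to 3.48. That interval holds changes of more than 4-fold in both directions.

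Hexokinases phosphorylate glucose and so keep it in the cell. Hk1 is the constitutive form and Hk2 the form that growth signals are known to induce, and both bind mitochondria. Hk2 read 7.70, 6.77 and 6.63 in the WT cultures and 10.38, 7.97 and 7.05 in the p85α-/- cultures. Its ratios were 2.68, 1.20 and 0.42, so that p85α-/- was higher within each array, though the p85α-/- culture of replicate 3 lay below the WT culture of replicate 1. The mean log2 ratio of Hk2 was 1.44 ± 1.15 (SD, n = 3; adjusted p = 0.908, limma). Of all probes, 12.5% were higher in p85α-/- on all 3 arrays, and 1 of the 20 member probes was. The WT signal of Hk2 was well above background on 1 of 3 arrays and the p85α-/- signal on all 3. The Hk2 difference was 1.81 without background subtraction (unadjusted p = 0.043, limma) and 3.22 with the software's processed signals, which differ in background and dye correction (unadjusted p = 0.004). It was 0.81 without replicate 1 (unadjusted p = 0.160, limma), and the unadjusted p was 0.165 without pairing by array. For Hk1 the brightest probe read 10.44, 14.41 and 11.98 in WT and 14.14, 12.37 and 13.89 in p85α-/-. WT replicate 2 was the highest of the 6 and WT replicate 1 the lowest. An average log2 ratio of 1.19 ± 2.94 (SD, n = 3) was smaller than the spread between arrays.

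Glucose-6-phosphate isomerase (Gpi1) makes fructose-6-phosphate, and phosphofructokinase then adds the second phosphate in the step that commits the sugar to glycolysis. Pfkl encodes the liver-type subunit of phosphofructokinase, which blood cells also use. Pfkl read 10.49, 11.76 and 9.52 in the WT cultures and 9.93, 10.36 and 8.19 in the p85α-/- cultures. The genotypes overlapped across arrays, but within each array p85α-/- was the lower culture, with log2 ratios of -0.56, -1.40 and -1.34. The mean was -1.10 ± 0.47 (SD, n = 3), which is 2.14-fold lower, with a 95% interval from -1.96 to -0.235 (unadjusted p = 0.025 and adjusted p = 0.908, limma). The single Pfkl probe lies at chr10:77642785-77642844 by the array's own annotation, whose genome build is not named. Of all probes, 13.3% were lower in p85α-/- on all 3 arrays, and 2 of the 20 member probes were. The other was a dim Hk1 probe, whose p85α-/- cultures (7.55, 7.83 and 7.89) all lay under its WT cultures (8.08, 7.93 and 9.41). It was the sole member probe whose genotypes did not overlap, against 5.94% of all probes in that direction and 4.54% in the opposite one. The Pfkl difference no longer passed under 9 of 15 alternatives. Among them were centring on the array median (-0.59), the fit without pairing by array (unadjusted p = 0.222, limma) and leaving out replicate 2 (-0.95) or replicate 3 (-0.98). The deposited table of ratios was also among the 9. For replicates 2 and 3 it matched the scanner's ratio at only 190 and 226 of 40929 probes with 1 spot. It is part of every count out of 15 given here, but its values cannot be read as those of the named genes. Gpi1 read 13.48, 14.62 and 12.95 in WT and 14.59, 12.72 and 15.17 in p85α-/-. The WT culture was the higher one on replicate 2 and the lower one on the other arrays, and the mean log2 ratio was 0.47 ± 2.13 (SD, n = 3).

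Aldolase A (Aldoa) splits fructose-1,6-bisphosphate into triose phosphates. The probes of Aldoa gave nearly the same picture. On the brighter one the WT cultures read 14.26, 15.77 and 14.33 and the p85α-/- cultures 16.19, 15.28 and 16.13. The p85α-/- cultures of replicates 1 and 3 were above every WT culture, and that of replicate 2 was below WT replicate 2. The mean log2 ratios were 1.08 ± 1.36 and 0.83 ± 1.10 on the 2 probes (SD, n = 3; adjusted p = 0.908 for both, limma). On the brighter probe the mean was 0.65 without replicate 1 and with loess, 1.86 without replicate 2 and 2.42 with median centring.

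The payoff phase follows. Phosphoglycerate kinase (Pgk1) and pyruvate kinase (Pkm2) make ATP, and enolase (Eno1) acts between them. Pgk1 had the smallest spread of these, with 10.13, 10.50 and 9.995 in WT and 11.25, 10.95 and 9.52 in p85α-/-. Its ratios of 1.12, 0.45 and -0.48 averaged 0.37 ± 0.80 (SD, n = 3), and p85α-/- replicate 3 was the lowest of the 6 cultures. The Eno1 probe read 11.02, 9.94 and 11.76 in WT and 8.13, 13.18 and 12.68 in p85α-/-. Its ratios ran from -2.89 on replicate 1 to 3.25 on replicate 2, the widest range of any member probe. The mean log2 ratio of Eno1 was 0.42 ± 3.10 (SD, n = 3). The brightest Pkm2 probe read 11.61, 15.14 and 13.03 in WT and 12.51, 13.58 and 12.71 in p85α-/-. WT replicates 1 and 2 were the lowest and the highest of the 6, and the mean was -0.32 ± 1.23 (SD, n = 3).

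Lactate dehydrogenase A (Ldha) reduces pyruvate to lactate. Its brightest probe read 12.06, 13.41 and 13.11 in the WT cultures and 13.68, 13.13 and 13.66 in the p85α-/- cultures. The p85α-/- cultures lay close together and WT replicate 1 stood lowest. The mean log2 ratio was 0.63 ± 0.95 (SD, n = 3; adjusted p = 0.908, limma). It was 0.13 without replicate 1, 1.08 without replicate 2 and 1.86 with median centring. Several of these genes have processed pseudogenes in the mouse, and because probe sequences were not used here, signal from such copies cannot be separated.

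Of the 10 genes, 6 had more than 1 probe, and the probes of a gene did not always tell the same story. The Aldoa probes had the same sign on 3 of 3 arrays. So did those of Pgk1, which share 38 bases. The Gpi1 probes had the same sign on 2 of 3 arrays. The Pkm2 probes lie only 88 bases apart, at chr9:59705879-59705938 and chr9:59706027-59706086 in the array's annotation, and had opposite signs on all 3. The dimmer of them gave -2.18, 1.76 and 2.32 where the brighter gave 0.91, -1.56 and -0.32. The Ldha probes also had opposite signs on all 3 arrays, with the other probe at -0.04, 0.78 and -0.52, and their means of 0.63 and 0.07 differed less than either spread.

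Hk1 had the most probes. Its 6 probes spanned the gene on chromosome 10, which is read from the minus strand in RefSeq, so that the probe with the lowest coordinate lies nearest the 3′ end. That probe was the brightest and the only one with a negative ratio on replicate 2 and positive ratios on the other arrays. The next, 819 bases upstream, had the opposite sign on every array (-1.54, 0.94 and -0.35). Those at 2461, 6515 and 46285 bases were positive on replicates 2 and 3 and negative on replicate 1, with means of 0.64, 0.77 and 1.34. The farthest, at 89203 bases, was negative throughout with a mean of -0.72 ± 0.73 (SD, n = 3). The sign of Hk1 within an array thus depended on the probe, and averaging its 6 probes gave 0.49.

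**Figure D2:**
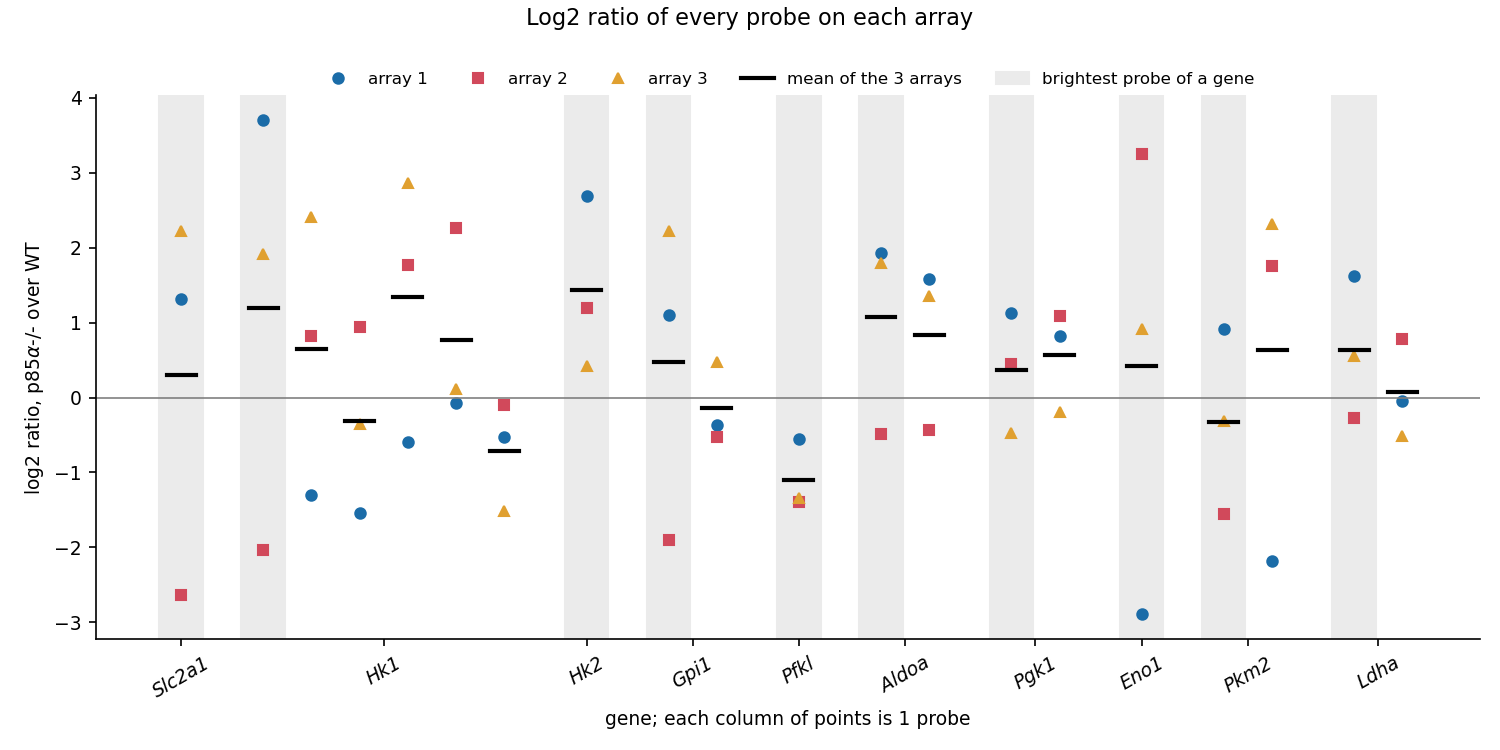
Log2 ratio of p85α-/- over WT (y axis) for each of the 20 probes on arrays 1, 2 and 3, grouped by gene in pathway order with the brightest probe first (shaded), and the mean as a black bar. The points of Pfkl all lie below 0 and those of Hk2 above 0, and the probes of Hk1, Pkm2 and Ldha do not follow each other.

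The members did not spread evenly over the arrays. With the brightest probes, 8 of 10 genes were higher in p85α-/- on replicate 1, 3 of 10 on replicate 2 and 7 of 10 on replicate 3, against 48.6%, 49.3% and 49.5% of all probes. The median member ratios were 1.22, -0.94 and 0.73 on the 3 arrays. The brightest 10% of probes ran the other way, with medians of -0.45, 0.37 and -0.56. Array 2 also stood apart before normalization, with a median p85α-/- signal of 517.3 against 210.9 and 206.6 on arrays 1 and 3. On array 2, 93.8% of the p85α-/- spots were well above background, against 77.6% and 77.3% on arrays 1 and 3. Whether this bears on the ratios of array 2 was not tested. Slc2a1, Hk1, Gpi1, Aldoa and Ldha were the 5 genes that were higher, lower and higher in turn, a pattern that 14.4% of all probes had and that was singled out after the values were seen. Over all 20 member probes the pattern was present on 6. Without replicate 2, the count of members past 1.5-fold and an unadjusted p under 0.05 was 4 in place of 1, while the share of all probes past both went from 4.44% to 7.69%. These were Slc2a1 (1.76), Hk1 (2.81), Gpi1 (1.66) and Aldoa (1.86), and Pfkl was not among them. The count was 1 without replicate 1 (Pfkl) and 1 without replicate 3 (Hk2), where 3.78% and 4.25% of all probes passed both.

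Markers of another cell type also differed between the arrays. Neutrophil markers were measured on 8 of 9 listed names, each well above background on every array in WT, p85α-/- or both. Their mean log2 level was 8.76 to 9.46 in the WT cultures and 11.14, 8.55 and 12.02 in the p85α-/- cultures of replicates 1, 2 and 3. Mpo, the myeloperoxidase of neutrophil granules, read 12.58, 14.05 and 12.20 in WT and 15.48, 10.68 and 17.59 in p85α-/-. Elane, the neutrophil elastase, had ratios of 3.54, -1.77 and 4.90. S100a8 and S100a9, which encode calprotectin, were higher in p85α-/- on all 3 arrays with means of 2.14 and 2.55, least so on replicate 2 (0.39 and 0.49). The WT signal of S100a8 was well above background on 2 of 3 arrays. On replicate 2, 5 of the 8 neutrophil genes were higher in p85α-/- (median log2 ratio 0.20), and Mpo and Elane were the 2 that were higher, lower and higher in turn. Camp had ratios of 1.33, 0.23 and 2.60 and Mmp8 of -0.37, 2.49 and 4.08. Levels of the granule genes Ltf (7.51 to 9.01) and Ngp (7.29 to 7.97) did not run the same way, with mean log2 ratios of -0.55 and -0.11. Whether cells that express these genes passed the sort for KIT and the IgE receptor was not tested, nor was their part in the glycolysis values. The mean level of the mast cell markers was higher in every p85α-/- culture than in any WT culture, with 10.29 to 11.14 in WT and 11.55 to 11.83 in p85α-/-, and Kit, a marker used for the sort, was higher by 2.06 ± 0.56 (SD, n = 3; adjusted p = 0.784, limma). Fcer1a, which encodes the IgE-binding subunit of the other receptor sorted for, had ratios of -2.99, 3.32 and 1.39, and the mast cell protease gene Mcpt4 had a mean of -0.89, the sole negative one of the 12. Macrophage markers (9 genes) had mean levels of 8.97 to 9.45 in WT and 8.93 to 9.22 in p85α-/-. Basophil markers (3 genes) lay at 8.85 to 10.54 and 10.03 to 10.61, and erythroid markers (7 genes) at 9.27 to 10.01 and 8.94 to 9.58. In a bulk sample, more cells of a type and more RNA per cell cannot be told apart.

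**Figure D3:**
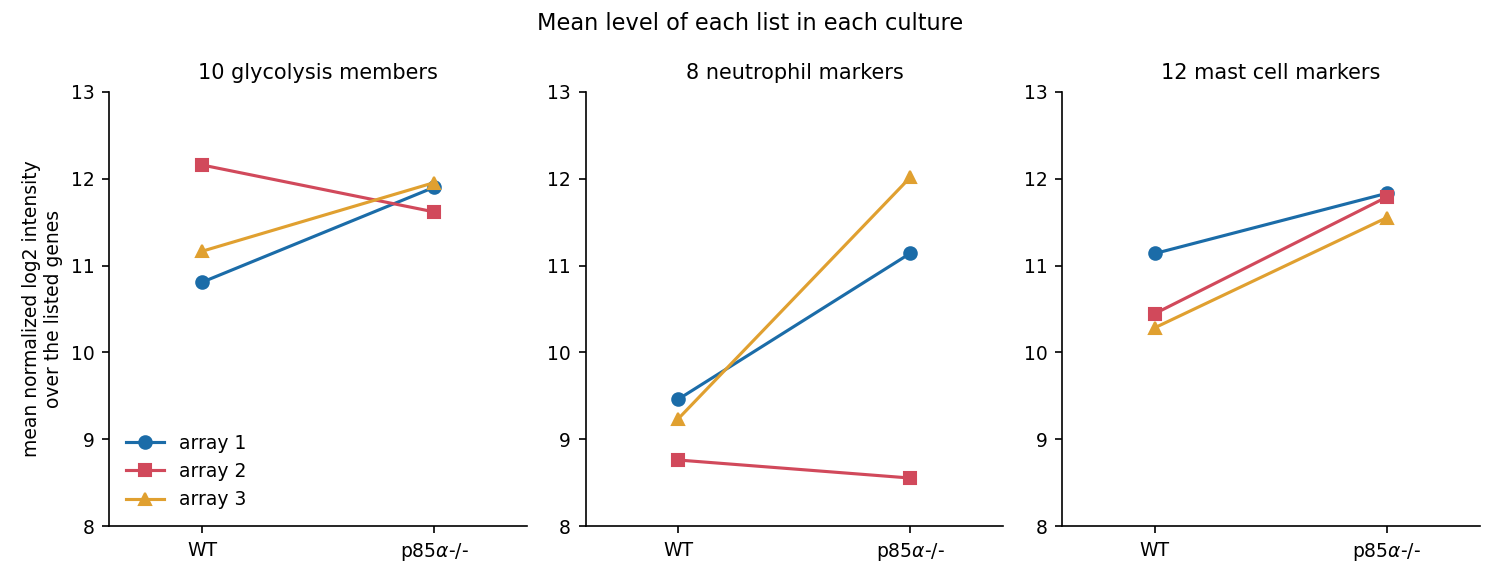
Mean normalized log2 intensity (y axis, starting at 8) over the brightest probes of the 10 glycolysis members, 8 neutrophil markers and 12 mast cell markers in each culture, with lines joining the cultures of 1 array. On array 2 the mean levels of the members and of the neutrophil markers were lower in p85α-/- than in WT (for the latter 8.55 against 8.76, with 5 of 8 genes higher), on arrays 1 and 3 both means were higher, and that of the mast cell markers was higher on all 3.

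The rest of the pathway gave no common direction. Of 23 other glycolysis genes on the array (Gapdh was not found by name), 1 passed the criteria with a higher value and 1 with a lower one. By brightest probe, 3.14% of all gene names passed with higher and 2.08% with lower values. The median of these genes was -0.43, with 7 above and 16 below 0. Tpi1, the triose phosphate isomerase, read 12.09, 11.98 and 12.33 in WT and 13.24, 12.42 and 13.71 in p85α-/-, so that every p85α-/- culture was above every WT culture. Its mean log2 ratio was 0.99 ± 0.49 (SD, n = 3; unadjusted p = 0.036 and adjusted p = 0.908, limma), and 10 of 15 alternatives ended the call, among them leaving out replicate 1 (0.91) or replicate 3 (0.79). Slc16a1, the lactate carrier MCT1, read 8.14, 9.51 and 11.35 in WT and 7.58, 7.86 and 8.12 in p85α-/-. All p85α-/- cultures lay below all WT cultures, and the mean was -1.81 ± 1.34 (SD, n = 3; unadjusted p = 0.045, limma), a call that 9 of 15 alternatives ended. It was -1.11 without replicate 3, -1.90 without replicate 2 and -1.02 as the mean over its probes.

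The highest mean among these genes belonged to Pgam1, the phosphoglycerate mutase (1.67 ± 1.67), followed by Pfkfb3, which makes the phosphofructokinase activator fructose-2,6-bisphosphate (1.31 ± 2.10). After Slc16a1 the lowest was Ldhc, the testis form of lactate dehydrogenase (-0.91 ± 0.61; SD, n = 3). None of these 3 passed. The mean was 0.77 for Pgam1 and -0.56 for Ldhc without replicate 2, and 0.24 for Pfkfb3 without replicate 1. Some isoforms of one step differed in sign. Beside Pfkl, the phosphofructokinase genes Pfkm and Pfkp had means of -0.81 ± 2.26 and 0.24 ± 2.69, and beside Slc2a1 the transporter gene Slc2a3 had -0.50 ± 1.13.

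**Figure D4:**
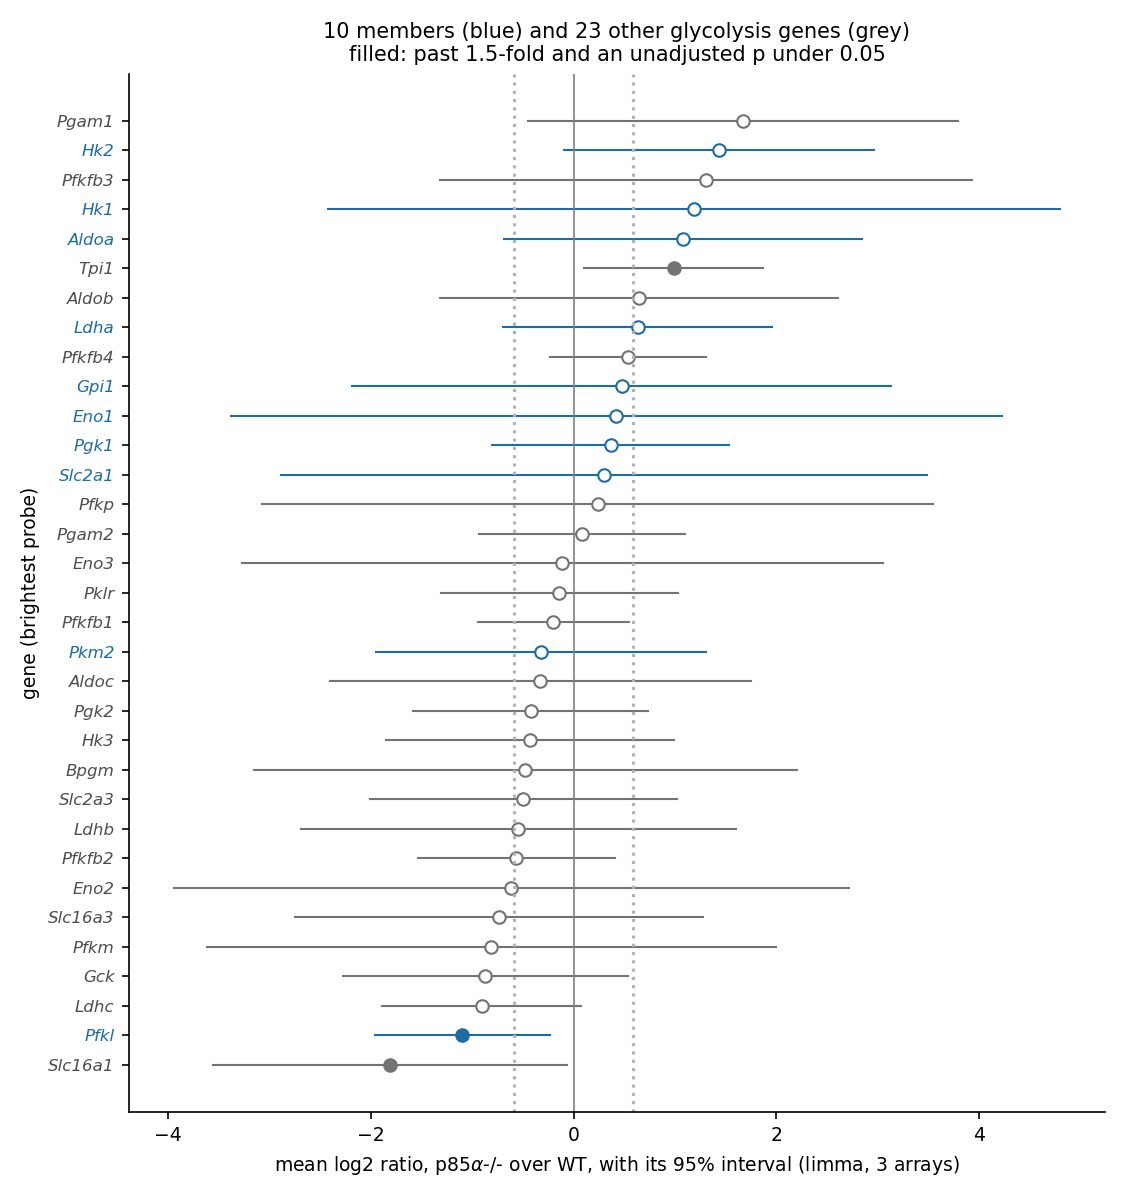
Mean log2 ratio of p85α-/- over WT (x axis) with its 95% interval from limma for the 10 members (blue) and 23 other glycolysis genes (grey), ordered by the mean, and dotted lines at 1.5-fold. The intervals of Pfkl, Tpi1 and Slc16a1 (filled points) do not include 0, and those of the other genes do.

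Branches and regulators of the pathway were read in the same way. Of 7 pentose phosphate genes, Pgls (6-phosphogluconolactonase) passed, with a mean log2 ratio of -1.34 ± 0.66 (SD, n = 3; unadjusted p = 0.023, limma) and ratios of -1.51, -1.90 and -0.61. The Pgls call ended under 11 of 15 alternatives, with -0.23 under median centring, -0.68 as the mean over its probes, -1.25 without replicate 1 and -1.06 without replicate 2. Tkt and Taldo1, which return pentoses to glycolysis and were singled out after their values were seen, had ratios of 1.81, -2.16 and 3.35 and of 2.02, -2.07 and 3.26, again with replicate 2 apart. None of 13 pyruvate dehydrogenase and mitochondrial pyruvate genes passed, their median being 0.25. Among 10 regulators Epas1, which encodes the HIF subunit HIF-2α, passed with -1.44 ± 0.78 (SD, n = 3; unadjusted p = 0.026, limma). Its p85α-/- cultures (8.76, 8.85 and 8.25) all lay below its WT cultures (9.33, 10.92 and 9.92). Its call ended under 6 of 15 alternatives, among them leaving out replicate 2 (-1.12) or replicate 3 (-1.32). Hif1a lay between 6.79 and 7.13 in all cultures, with a mean log2 ratio of -0.08 ± 0.18, and its WT signal was well above background on 2 of 3 arrays. Myc had a mean of -0.17 ± 0.89.

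Of 11 further HIF-1 target genes, 3 passed with higher values and none with lower ones, against 3.14% and 2.08% of all gene names. Ankrd37 was higher by 2.17 ± 1.04, P4ha2 by 2.41 ± 1.86 and P4ha1 by 1.11 ± 0.75 (SD, n = 3), the latter pair encoding collagen prolyl hydroxylase subunits, and every adjusted p was 0.908 (limma). The WT signal of P4ha2 was well above background on 2 of 3 arrays and its p85α-/- signal on all 3. The call ended under 9 of 15 alternatives for P4ha1, and no fit with 1 replicate left out kept it (0.70 to 1.43). For P4ha2 it ended under 8 of 15, among them leaving out replicate 1 (1.99) or replicate 3 (1.76). The Ankrd37 call ended under 4 of 15, among them leaving out replicate 2 (2.35). The median of the 11 was -0.20, with 5 means above 0 and 6 below. The others ran from -1.70 ± 2.15 for Vegfa to 0.88 ± 2.47 for Ndrg1 (SD, n = 3), with 0.10 ± 0.27 for Car9 and -0.63 ± 0.70 for Bnip3.

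**Figure D5:**
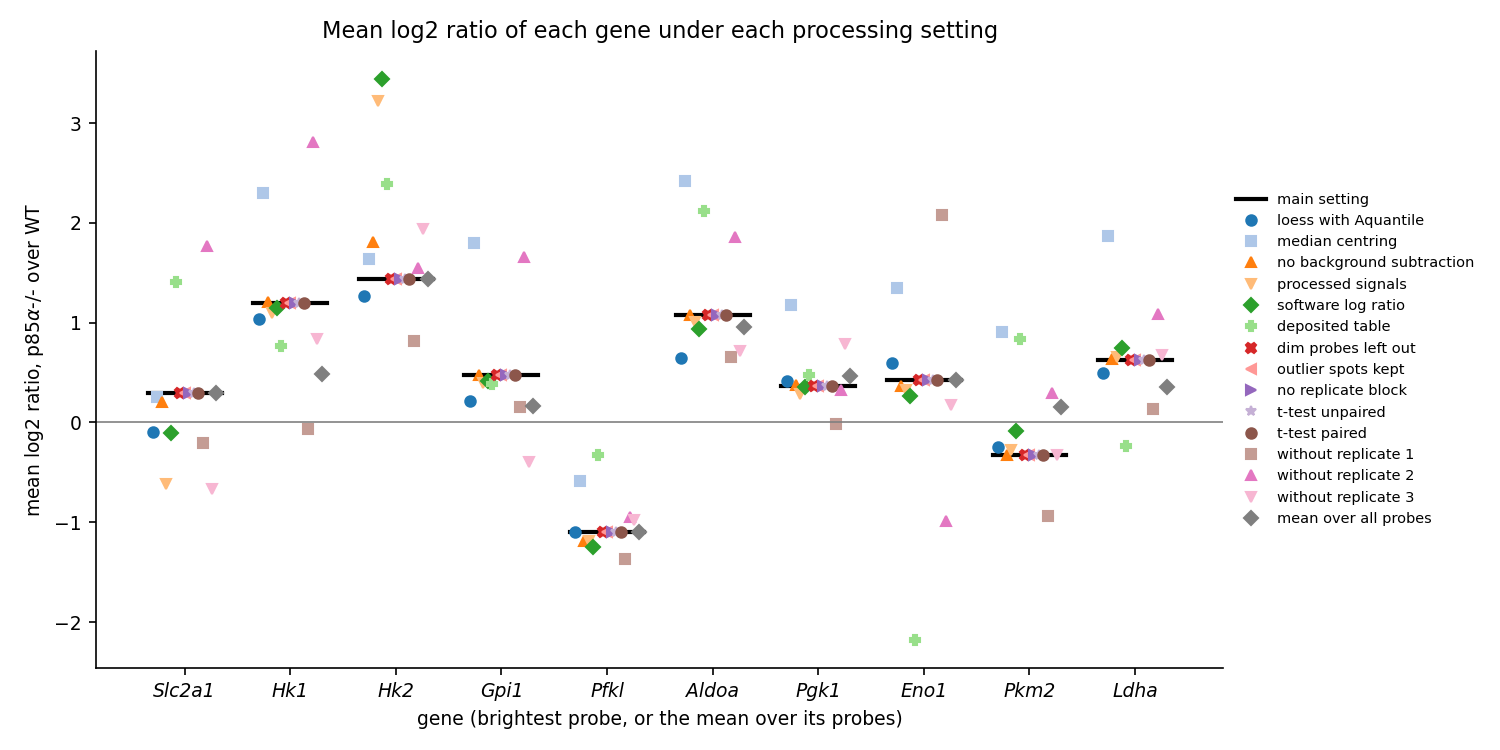
Mean log2 ratio of p85α-/- over WT (y axis) of each of the 10 genes under the main setting (black bar) and 15 alternatives (points). Pfkl stays below 0 and Hk2 and Aldoa above 0 under all of them, whereas each of the other 7 genes lies on both sides of 0, Hk1, Gpi1 and Pgk1 through 1 left-out replicate. Ldha does so through the deposited table alone, whose values are not read as those of the named genes.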

How the data were processed

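Amplified cDNA of 3 WT and 3 p85α-/- MCp cultures was hybridized to 3 Agilent arrays of 2 colors on 1 slide. The authors deposited 1 scanner file per array from Agilent Feature Extraction, with intensity values (mean signal and background median of each spot, not normalized) and the software's processed signals. They also deposited processed log10 ratios, 1 for every probe of an array. In that table the ratios of replicates 2 and 3 stand on the probe they were scanned from for 190 and 226 of 40929 probes with 1 spot (all 40929 for replicate 1, tolerance 1.5e-05 on the log10 scale). It therefore served as an alternative only, and its values are not read as those of the named genes. The study's methods name quantile normalization with 1.5-fold and p under 0.05 as criteria, and its results name Partek and the t-test of Student.

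From the scanner files, mean signals were background-corrected (normexp, offset 50) and quantile normalized over 6 channels on the log2 scale. Control and outlier spots were left out and spots of a probe averaged. Of 41174 probes, 41157 were tested. The log2 ratio within each array was tested against 0 with limma 3.58.1 in R 4.3.3 (intercept only, eBayes, Benjamini-Hochberg over all probes). A gene is given by its brightest probe unless stated. All members and all their probes are given. Other genes are named if they passed 1.5-fold and an unadjusted p under 0.05 or were among the 2 highest or lowest other glycolysis genes, and others are given for context. Members, lists and rules were chosen with earlier results of these data known. The probe median of the WT signal was 71.5 to 141.2 and that of the p85α-/- signal 206.6 to 517.3, no spot was saturated (0), and the number of arrays limits the precision. The replicates are separate mice. The tests were tested on simulated data. Other settings tried were centring on the array median, loess within arrays followed by Aquantile, signals without subtracted background, processed signals, the software's log ratio and the deposited table. Also tried were probes restricted to those above background, outlier spots retained, limma without pairing by array, Student's t-test (unpaired or paired), 2 of 3 replicates at a time, and averages over a gene's probes. Promoter sequences are from RefSeq (GRCm38.p6), in which all 10 genes matched.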

Additional observations from a re-analysis of the deposited data

How the results depend on the processing

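No alternative brought any probe to an adjusted p under 0.05 (0 in each). The count of members past 1.5-fold and an unadjusted p under 0.05, which was 1 (Pfkl), was 2 without background subtraction (Hk2 added). It was 3 with the deposited table, which is not a count of these genes, since its ratios of replicates 2 and 3 mostly stand on other probes. With processed signals and with the software's log ratio it was 1, Hk2 in place of Pfkl. Of all probes, 4.44% passed in the main setting, 4.53% without background subtraction, 3.07% with the deposited table, 4.65% with processed signals, 4.96% with the software's log ratio and 6.56% with median centring. The count of members was 0 with median centring, without the replicate block (no pairing by array) and with Student's t-test, unpaired or paired. It ranged from 1 to 4 when replicates were left out. Of other glycolysis genes, 2 passed. That count was 0 with loess and with both forms of Student's t-test, and 1 without background subtraction, without dim probes and with the mean over all probes. It was 3 with processed signals and the software's log ratio, and 1 to 3 when replicates were left out. It stayed 2 with other genes under median centring (Tpi1 and Pgam1) and without the replicate block (Tpi1 and Ldhc). The mean log2 ratio of Slc2a1 turned to -0.095 with loess, -0.62 with processed signals and -0.10 with the software's log ratio. Pkm2 turned to 0.91 with median centring and 0.15 with the mean over its probes. The deposited table gave the opposite sign under the names Pkm2 (0.84), Eno1 (-2.18), Ldha (-0.235), Pik3r1 (-0.14), Ldhc (0.59) and P4ha1 (-1.02). These values cannot be read as changes of the named genes, because the ratios of replicates 2 and 3 mostly stand on other probes. Leaving out 1 replicate gave ranges across 0 of -0.66 to 1.76 for Slc2a1, -0.063 to 2.81 for Hk1, -0.40 to 1.66 for Gpi1, -0.012 to 0.79 for Pgk1, -0.99 to 2.08 for Eno1 and -0.94 to 0.29 for Pkm2. The signs of Hk2, Pfkl and Aldoa held under all 15 alternatives. That of Ldha held under all but the deposited table, whose value is not read as that of Ldha. The cause was not tested. With median centring the median over all probes went from -0.05 to 0.09 and that of the members from 0.45 to 1.49, and the share of probes past both criteria that were higher in p85α-/- from 62.6% (1145 of 1829) to 91.4% (2465 of 2698). That number of probes was 1125 and 819 with the unpaired and paired t-test and 3165 without replicate 2.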
